A study of Tupaia belangeri chinensis with 12 samples.

Results

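Voltage-gated ion channel genes were examined across the cortical wall in fetuses of Tupaia belangeri chinensis, the Chinese tree shrew, a small mammal close to primates. The members are the genes whose symbol starts with KCN and a letter, SCN and a digit, CACNA, CACNB, CACNG, or HCN and a digit. Symbols that end in "li" and a number were left out. What that ending marks is not given in the sources used here. The rule took 135 of the 81414 gene identifiers in the deposited tables. Of these 135, 83 reached 1 FPKM (fragments per kilobase of transcript, relative to all mapped fragments of the library) in at least 3 libraries and were tested together with all 14101 genes that did. The 4 groups were the cortical plate (CP), the outer subventricular zone (OSVZ), the inner subventricular zone (ISVZ) and the ventricular zone (VZ), with 3 libraries of each, all from fetal cortex labelled as embryonic day 37, although the names of the deposited files carry day 35. The labels name no genotype, treatment or sex for any group. The layers were cut by laser from Nissl-stained frozen sections, so each library is bulk RNA of all the cells in the cut piece, and poly(A) RNA was sequenced. Whether the 3 libraries of each layer represent different animals is not stated, so the p-values reflect how much these particular libraries vary, and part or all of that variation may be technical.

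Voltage-gated channels open when the membrane potential changes. Sodium channels carry the upstroke of the action potential, potassium channels repolarise the cell and set its resting potential, calcium channels couple electrical activity to release and transcription, and HCN channels pass a depolarising current on hyperpolarisation. In the developing cortex, radial glia line the ventricle in the VZ, the ISVZ and OSVZ hold further progenitors and migrating young neurons, and the CP collects neurons that have stopped migrating. Neurons gain the channels for repetitive firing as they mature, while radial glia are known for a large resting potassium conductance.

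The gene symbols only partly bear out the label of a voltage-gated set. Alongside pore-forming voltage-gated subunits, the rule takes inward rectifiers (KCNJ), tandem-pore leak channels (KCNK), calcium- and sodium-activated potassium channels (KCNN, KCNT), accessory subunits (SCN beta, CACNA2D, CACNB, KCNAB, KCNE, KCNIP, KCNMB), the regulator KCNRG, and CACNG genes of which several encode auxiliary subunits of AMPA-type glutamate receptors. The set is therefore called channel genes below. The RefSeq gene table for this species holds 125 of the 135 symbols.

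Values below are FPKM after scaling each library to a common median, called scaled FPKM. Summed FPKM per library ran from 244666 to 276629, and 12157 to 13417 genes reached 1 FPKM. Read counts are not used here, so the depth of each library is unknown. In VZ, libraries 1 and 2 stood apart by transthyretin (TTR), the main secreted protein of choroid plexus, at 529 and 2514 scaled FPKM, against 33.8 in VZ library 3. Calls printed below that were lost without those 2 libraries are therefore marked. That fit leaves 1 VZ library, so a lost call there may also come from having fewer libraries, which was not tested. The layer labels could be checked against markers. Summed neuronal markers stood at 1779 to 1844 scaled FPKM in CP, 798 to 894 in OSVZ, 358 to 555 in ISVZ and 129 to 283 in VZ, while summed radial glia markers stood at 26.1 to 44.8 in CP, 199 to 212 in OSVZ, 300.0 to 391 in ISVZ and 724 to 847 in VZ.

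Channel genes were higher towards the outside of the wall. In CP against the mean of OSVZ, ISVZ and VZ, 46 of the 83 tested channel genes (55.4%) were higher and 8 (9.64%) were lower, where 24.0% and 28.7% of all tested genes were. The median log2 difference was 0.63 over the 83 and -0.05 over all tested genes. In OSVZ against VZ, 39 (47.0%) were higher and 4 (4.82%) lower, where 11.7% and 16.2% of all tested genes were, with medians of 0.62 and -0.02. Over the 4 layers, 59 of the 83 (71.1%) differed by the F test, against 51.8% of all tested genes. Layer means followed the order CP above OSVZ above ISVZ above VZ in 43 of the 83 (51.8%) and the opposite order in 6 (7.23%), shares that were 15.4% and 19.6% over all tested genes. Differences are on the log2(scaled FPKM + 1) scale, which understates those of low genes, and a call is a Benjamini-Hochberg adjusted p under 0.05 in limma, two-sided, over all 14101 genes. In bulk tissue, fewer cells of a type and less RNA per cell cannot be told apart, and the neuronal markers moved with these differences, with 9 of 10 higher in CP and 8 of 10 higher in OSVZ than in VZ. Markers lower in CP were 7 of 8 for interneurons, 4 of 4 tested for oligodendrocyte precursors, 7 of 7 for microglia and 4 of 5 tested for mural cells. In OSVZ against VZ, 3 of the 4 tested markers of oligodendrocyte precursors were higher (OLIG1 by 2.47, PDGFRA by 1.87 and SOX10 by 0.89). OLIG2, the other tested one, was not called (0.34). CSPG4, not tested, ran the other way, at 0.0742 to 0.179 scaled FPKM in OSVZ and 0.640 to 1.58 in VZ. For interneurons, 4 of 8 markers were lower in OSVZ. The part of these cell types in the result was not tested. Leaving out VZ libraries 1 and 2 together left 1 VZ library. Fewer channel genes were then called in OSVZ against VZ. The called differences reported by name kept their direction there where they could be tested. The part of the smaller number of libraries in the lost calls was not tested. The 4 lower in OSVZ became 1 without VZ library 2, 2 without OSVZ library 2 or VZ library 3, and 6 without CP library 3. Genes that passed the filter through the layer where they are high had to differ, so these counts describe the tested genes and not all 135. Among the 23 channel genes with a mean of at least 5 scaled FPKM over the 12 libraries, 11 were higher and 2 lower in CP, where 27.8% of all genes with such a mean were higher and 27.8% lower.

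**Figure D1:**
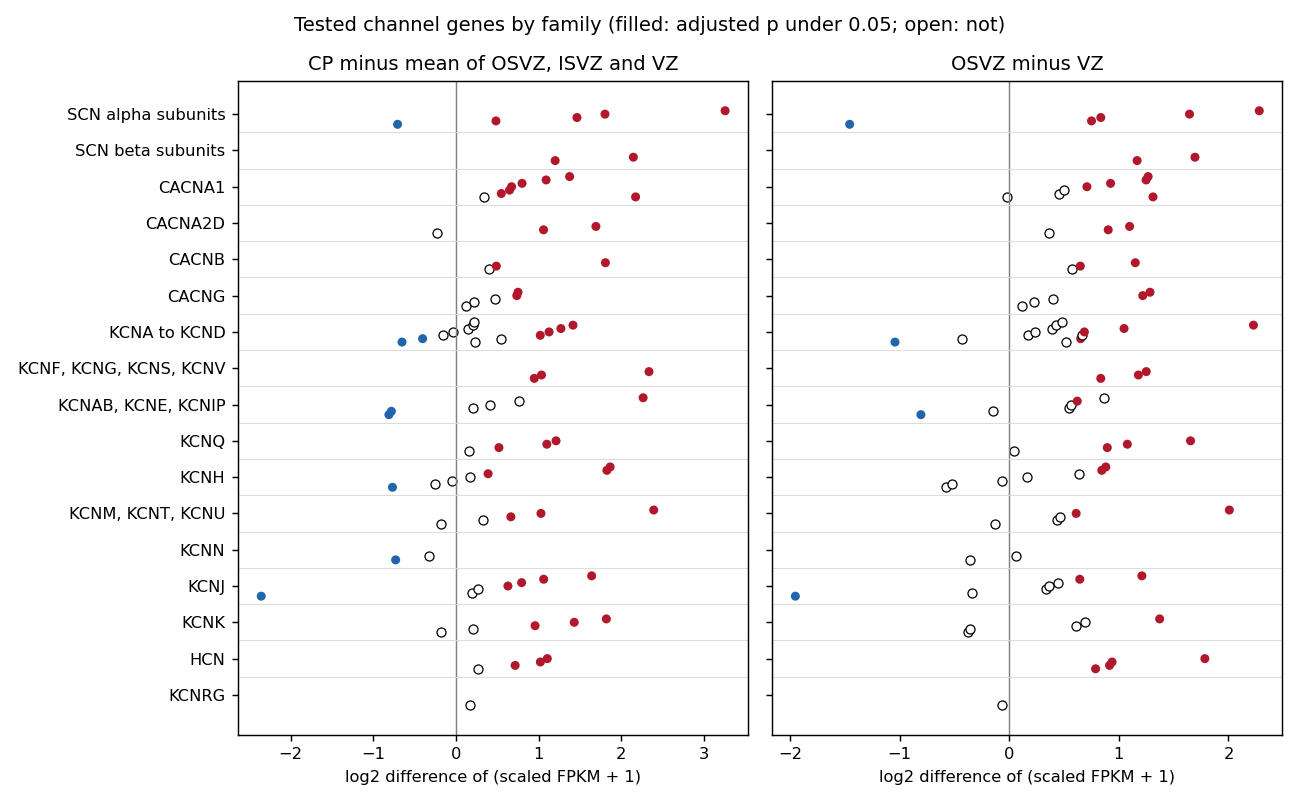
Log2 difference of (scaled FPKM + 1) for each of the 83 tested channel genes, by family, in CP minus the mean of OSVZ, ISVZ and VZ (left) and in OSVZ minus VZ (right), where filled points have an adjusted p under 0.05 (red higher, blue lower) and open points do not. Most filled points lie right of 0, and the lowest point in both panels is KCNJ10, at -2.36 and -1.95.

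Of the 5 tested SCN alpha genes, 4 were higher in CP and 1, SCN7A, was lower. Of all tested genes, 24.0% were higher and 28.7% lower. SCN7A is counted although only its VZ libraries carried it past the filter. SCN2A, which encodes a main pore-forming subunit of the axon initial segment in young excitatory neurons, had 34.2, 28.9 and 32.6 scaled FPKM in CP, 5.90, 5.57 and 12.5 in OSVZ, 2.33, 1.52 and 1.45 in ISVZ and 0.478, 0.616 and 1.24 in VZ. The layers did not overlap, and OSVZ library 3 was more than 2-fold above the other OSVZ libraries. SCN2A was higher in CP by 3.26 ± 0.21 (log2, SE; limma adjusted p = 4.63e-07), the largest difference of any tested channel gene, and higher in OSVZ than in VZ by 2.28 ± 0.26 (limma adjusted p = 2.47e-04). Its neighbour on chromosome 1, SCN3A, the subunit known for its high level in the fetal brain, had 28.1, 24 and 24.6 scaled FPKM in CP, 14.4, 15.4 and 17.4 in OSVZ, 9.91, 11.1 and 6.48 in ISVZ and 5.66, 3.77 and 3.80 in VZ. SCN3A thus also fell layer by layer without overlap, but more gradually than SCN2A. Its log2 difference was 1.46 ± 0.15 in CP (limma adjusted p = 1.23e-05) and 1.64 ± 0.18 in OSVZ against VZ (limma adjusted p = 2.41e-04).

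Because of these unlike gradients the SCN2A to SCN3A ratio of FPKM, looked at after the values were seen and given with no test, was 1.22, 1.20 and 1.33 in CP, 0.409, 0.361 and 0.721 in OSVZ, 0.235, 0.137 and 0.223 in ISVZ and 0.0843, 0.163 and 0.326 in VZ. SCN2A exceeded SCN3A in the 3 CP libraries and in no other library. SCN2A made up 46.5% to 47.7% of the summed FPKM of the 10 SCN alpha genes in CP and 3.69% to 10.9% in VZ. That sum leaves out SCN1Ali2, an entry outside the rule with a mean of 8.66 scaled FPKM in CP and 2.93 in VZ. With SCN1Ali2 in the sum, the SCN2A shares would be lower. In the coordinates of the deposited tables, whose genome build is not given in the sources used here, SCN3A spans 146544370 to 146711142 and SCN2A 146719607 to 146875708 on chromosome 1. SCN9A (147711346 to 147898642) and SCN7A (147934636 to 148039348) follow on the same chromosome.

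In CP, the other SCN alpha genes of the set were lower than SCN2A and SCN3A. SCN8A, the main subunit of the mature axon initial segment and nodes, had 5.77, 5.00 and 5.95 scaled FPKM in CP, 5.38, 4.59 and 4.91 in OSVZ, 4.38, 3.79 and 3.58 in ISVZ and 3.07, 1.83 and 2.85 in VZ. CP and OSVZ overlapped, ISVZ lay below both and VZ lay below ISVZ. The difference was 0.48 ± 0.12 in CP (limma adjusted p = 0.00503) and 0.75 ± 0.14 in OSVZ against VZ (limma adjusted p = 0.00312). SCN9A, best known from sensory neurons, had 3.38, 4.0 and 4.80 scaled FPKM in CP, 0.536, 0.463 and 2.55 in OSVZ, 0.296, 0.462 and 0.265 in ISVZ and 0.0825, 0.0618 and 0.223 in VZ. It was higher in CP by 1.80 ± 0.23 (limma adjusted p = 7.05e-05). Its call in OSVZ against VZ (0.84 ± 0.29, limma adjusted p = 0.0493) rested on OSVZ library 3 and was lost without it, at an adjusted p of 0.0942, without any single library of CP, ISVZ or VZ, at 0.0599 to 0.126, and without VZ libraries 1 and 2 together, at 0.360. SCN4A, SCN10A and SCN11A, known from muscle and sensory neurons, stayed below 1 scaled FPKM in all 12 libraries.

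Accessory SCN beta subunits, which set the gating and surface level of the alpha subunits, followed the alpha genes. SCN3B was the highest of these, with 70.1, 81.6 and 80.7 scaled FPKM in CP, 30.1, 22.9 and 48.5 in OSVZ, 13.4, 19.1 and 13.7 in ISVZ and 9.48, 8.85 and 9.51 in VZ. No 2 layers overlapped. SCN3B was higher in CP by 2.15 ± 0.18 (limma adjusted p = 3.03e-06) and in OSVZ over VZ by 1.69 ± 0.22 (limma adjusted p = 4.25e-04). SCN2B had 5.18, 6.68 and 4.84 scaled FPKM in CP, 3.69, 3.26 and 3.85 in OSVZ, 2.35, 1.59 and 0.663 in ISVZ and 1.16, 1.15 and 0.846 in VZ. Only its ISVZ and VZ libraries overlapped, and it was higher in CP by 1.20 ± 0.18 (limma adjusted p = 1.87e-04) and in OSVZ over VZ by 1.17 ± 0.22 (limma adjusted p = 0.00271). SCN4B stayed below 1 scaled FPKM.

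**Figure D2:**
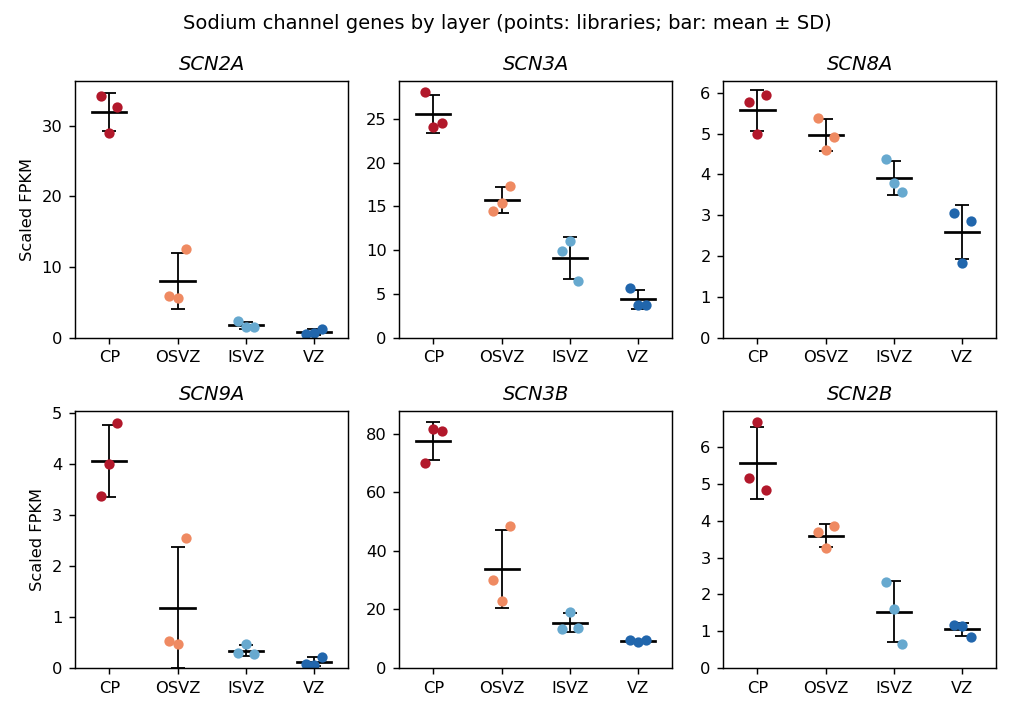
Scaled FPKM (vertical axes, each from 0) of 6 sodium channel genes in CP, OSVZ, ISVZ and VZ, with a point per library, a bar at the mean and whiskers of 1 SD (n = 3). SCN2A has a mean of 31.9 in CP and 8.0 in OSVZ, SCN3A of 25.6 in CP and 15.7 in OSVZ, and SCN8A of 5.57 in CP and 4.96 in OSVZ.

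Among calcium channel pores (CACNA1), 7 of 8 tested genes were higher in CP, where 24.0% of all tested genes were. CACNA1E, the R-type channel, differed most, with 7.08, 6.62 and 16.9 scaled FPKM in CP, 2.51, 1.19 and 4.91 in OSVZ, 1.41, 1.44 and 0.992 in ISVZ and 0.380, 0.364 and 0.732 in VZ. CP lay above every other library, with CP library 3 more than 2-fold above the other CP libraries, and the difference was 2.17 ± 0.30 (limma adjusted p = 1.04e-04). The L-type genes had a step at the CP. CACNA1C had 2.57, 2.24 and 2.43 scaled FPKM in CP and 0.377 to 1.66 in the other 9 libraries, and CACNA1D had 5.23, 3.60 and 3.63 in CP and 0.414 to 2.05 in the other 9. Both lay clear of the other layers in CP, by 1.09 ± 0.15 for CACNA1C (limma adjusted p = 1.32e-04) and 1.37 ± 0.21 for CACNA1D (limma adjusted p = 2.00e-04), and neither passed in OSVZ against VZ (limma adjusted p = 0.0964 for CACNA1C and 0.166 for CACNA1D).

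The genes of presynaptic channels were already high in the OSVZ. CACNA1B, the N-type channel, had 6.22, 5.28 and 5.12 scaled FPKM in CP, 5.66, 4.45 and 5.95 in OSVZ, 3.73, 3.35 and 2.29 in ISVZ and 1.78, 1.34 and 1.89 in VZ. CP and OSVZ overlapped, while ISVZ and VZ lay apart below them. It was higher in OSVZ than in VZ by 1.25 ± 0.16 (limma adjusted p = 3.90e-04) and its difference between CP and OSVZ was 0.05 ± 0.16 (limma adjusted p = 0.854). CACNA1A, the P/Q-type channel, averaged 3.86 ± 1.29 scaled FPKM in CP, 2.99 ± 1.15 in OSVZ, 1.53 ± 0.207 in ISVZ and 1.06 ± 0.273 in VZ (SD, n = 3 each). It was higher in CP by 0.80 ± 0.19 (limma adjusted p = 0.00469), and its call in OSVZ against VZ (0.92 ± 0.24, limma adjusted p = 0.0133) was lost without VZ library 2, at an adjusted p of 0.0572, and without VZ libraries 1 and 2 together, at 0.215. Among T-type genes, CACNA1H averaged 5.11 ± 0.204 scaled FPKM in CP, 4.35 ± 0.846 in OSVZ, 3.24 ± 0.389 in ISVZ and 2.27 ± 0.410 in VZ, and was higher in CP by 0.55 ± 0.11 (limma adjusted p = 0.00197). CACNA1I had 2.89, 2.09 and 2.08 scaled FPKM in CP, 2.93, 1.76 and 3.13 in OSVZ, 1.82, 0.558 and 0.550 in ISVZ and 0.460, 0.265 and 0.588 in VZ. Its CP and OSVZ libraries overlapped, and it was higher in OSVZ than in VZ by 1.31 ± 0.24 (limma adjusted p = 0.00266, and 0.0824 without VZ libraries 1 and 2 together). CACNA1G, the third T-type gene, ran from 0.764 to 2.76 over the 12 libraries and passed in neither comparison (limma adjusted p = 0.245 in CP and 0.961 in OSVZ against VZ). CACNA1F was at 0 in all libraries and CACNA1S, the skeletal muscle channel, did not exceed 0.115.

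Calcium channel accessory subunits differed in their steps. CACNB4, a cytoplasmic beta subunit, had 9.71, 4.97 and 7.93 scaled FPKM in CP, 2.19, 2.32 and 3.20 in OSVZ, 1.55, 1.61 and 0.953 in ISVZ and 0.522, 0.464 and 0.829 in VZ. The layers did not overlap, and CACNB4 was higher in CP by 1.81 ± 0.18 (limma adjusted p = 8.44e-06). CACNB3, the highest of the beta subunits, averaged 20.4 ± 2.11 scaled FPKM in CP, 18.2 ± 1.89 in OSVZ, 14.3 ± 2.65 in ISVZ and 11.2 ± 0.432 in VZ, a shallower gradient of 0.49 ± 0.11 in CP (limma adjusted p = 0.00340). CACNA2D1, an extracellular subunit that raises channel surface levels, had 15.4, 14.0 and 15.8 scaled FPKM in CP, 12.1, 10.7 and 7.83 in OSVZ, 10.5, 4.71 and 4.19 in ISVZ and 6.40, 3.85 and 4.79 in VZ, with the 3 CP libraries above all others (1.06 ± 0.22, limma adjusted p = 0.00203). CACNA2D3, of the same family, averaged 9.07 ± 2.78 scaled FPKM in CP, 3.59 ± 2.54 in OSVZ, 2.46 ± 0.230 in ISVZ and 0.966 ± 0.310 in VZ (1.69 ± 0.26 in CP, limma adjusted p = 2.13e-04). CACNA2D2 stood at 12.7 in OSVZ library 3 and at 1.78 to 3.10 in the other 11 libraries, and passed in neither comparison.

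In each of OSVZ, ISVZ and VZ the highest mean FPKM of the set belonged to a CACNG gene. This gene, CACNG7, of the AMPA receptor auxiliary group, averaged 53.1 ± 6.79 scaled FPKM in CP, 49.5 ± 1.03 in OSVZ, 44.7 ± 6.67 in ISVZ and 42.2 ± 1.86 in VZ, and CACNG4 averaged 30.2 ± 3.41 in CP, 32.6 ± 8.23 in OSVZ, 27.6 ± 3.59 in ISVZ and 24.1 ± 3.2 in VZ. Neither passed in CP (limma adjusted p = 0.0902 for CACNG7 and 0.496 for CACNG4). CACNG8 had 23.7, 16.5 and 19.5 scaled FPKM in CP, 17.7, 13.4 and 23.4 in OSVZ, 13.0, 12.3 and 8.95 in ISVZ and 7.81, 6.02 and 7.47 in VZ. It overlapped between CP and OSVZ but not between ISVZ and VZ, and was higher in OSVZ than in VZ by 1.22 ± 0.20 (limma adjusted p = 0.00152). CACNG2, also called stargazin, averaged 4.18 ± 0.818 scaled FPKM in CP, 4.03 ± 0.908 in OSVZ, 1.95 ± 0.718 in ISVZ and 1.04 ± 0.0838 in VZ, and was higher in OSVZ than in VZ by 1.28 ± 0.19 (limma adjusted p = 8.97e-04).

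Of the delayed rectifier and A-type genes (KCNA to KCND), 13 of 17 were tested, of which 4 were higher and 2 lower in CP. With 24.0% and 28.7% of all tested genes called, the number higher is near the background. KCND2, a pore of the A-type current of dendrites, had 5.85, 6.80 and 7.80 scaled FPKM in CP, 4.60, 5.86 and 7.16 in OSVZ, 2.35, 1.59 and 0.839 in ISVZ and 0.491, 0.268 and 0.612 in VZ. CP and OSVZ overlapped, and both lay above all ISVZ and VZ libraries. The difference was 2.23 ± 0.22 in OSVZ against VZ (limma adjusted p = 1.77e-04), the second largest of the set there, and 0.20 ± 0.22 in CP against OSVZ (limma adjusted p = 0.528). Its paralogue KCND3 had 2.81, 2.25 and 2.5 scaled FPKM in CP, 2.66, 2.55 and 3.56 in OSVZ, 3.57, 4.31 and 3.78 in ISVZ and 5.23, 4.70 and 3.12 in VZ. KCND3 ran the other way, with overlap between CP and OSVZ and between ISVZ and VZ, and was lower in CP (-0.40 ± 0.13, limma adjusted p = 0.0251), a call lost without CP library 2 or 3 (adjusted p = 0.104 and 0.0688) and without VZ libraries 1 and 2 together (0.0812).

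KCNC1, a pore of fast-firing neurons, averaged 4.81 ± 0.808 in CP, 5.5 ± 1.32 in OSVZ, 3.82 ± 0.687 in ISVZ and 3.02 ± 0.597 in VZ and did not pass in CP (limma adjusted p = 0.244). KCNB2, a delayed rectifier, had 6.29, 6.89 and 5.49 scaled FPKM in CP and 1.38 to 4.44 in the other 9 libraries, without overlap (1.02 ± 0.15, limma adjusted p = 2.10e-04). KCNA6 was the highest of the KCNA genes, with 8.82, 5.42 and 6.45 scaled FPKM in CP and 1.68 to 5.49 in the other 9 libraries, with slight overlap (1.13 ± 0.25, limma adjusted p = 0.00261). KCNA2, a subunit of mature axons, ran from 0.529 to 2.42 and did not pass (limma adjusted p = 0.571). KCNA1, its usual partner, had 1.56, 0.784 and 6.70 scaled FPKM in CP and at most 0.449 elsewhere and did not reach the filter.

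Electrically silent subunits (KCNF, KCNG, KCNS, KCNV), which form channels only with KCNB subunits and alter their gating, had 3 of 10 genes tested. All 3 were higher in CP and in OSVZ against VZ, where 24.0% and 11.7% of all tested genes were. KCNV1 had 7.45, 7.27 and 8.78 scaled FPKM in CP, 2.34, 1.36 and 2.19 in OSVZ, 0.595, 0.305 and 0.548 in ISVZ and 0.210, 0.142 and 0.351 in VZ. The CP and OSVZ libraries lay apart from each other and from the rest, and ISVZ and VZ overlapped. KCNV1 was higher in CP by 2.33 ± 0.13 (limma adjusted p = 1.75e-07), the lowest p of the set, and had the third largest difference. KCNF1 averaged 7.52 ± 2.47 scaled FPKM in CP, 5.16 ± 0.224 in OSVZ, 3.06 ± 1.16 in ISVZ and 1.73 ± 0.327 in VZ (1.03 ± 0.20 in CP, limma adjusted p = 0.00112). KCNG1 averaged 11.3 ± 2.79 in CP, 7.73 ± 3.05 in OSVZ, 5.47 ± 1.98 in ISVZ and 3.76 ± 0.810 in VZ (0.95 ± 0.22 in CP, limma adjusted p = 0.00395). Its call in OSVZ against VZ (0.83 ± 0.27, limma adjusted p = 0.0400) was lost without CP library 1, OSVZ library 1 or 2, ISVZ library 2, or VZ library 2 or 3 (adjusted p of 0.0503 to 0.144). Without VZ libraries 1 and 2 together, the calls of KCNG1 (0.185) and KCNF1 (0.105) in OSVZ against VZ were both lost.

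Potassium channel accessory subunits moved in both directions. KCNIP2, a calcium-binding partner of KCND channels, had 26.9, 17.2 and 28.2 scaled FPKM in CP, 6.07, 4.52 and 13.7 in OSVZ, 3.02, 1.92 and 2.78 in ISVZ and 2.75, 4.28 and 3.82 in VZ. CP lay above all other libraries and OSVZ library 3 stood apart from the other OSVZ libraries. KCNIP2 was higher in CP by 2.26 ± 0.26 (limma adjusted p = 2.89e-05) and did not pass in OSVZ against VZ (0.86 ± 0.32, limma adjusted p = 0.0657). KCNIP3, also known as the transcriptional repressor DREAM, had 1.38, 3.5 and 1.78 scaled FPKM in CP, 2.52, 3.60 and 3.35 in OSVZ, 4.16, 3.18 and 6.30 in ISVZ and 5.17, 7.28 and 6.37 in VZ. It was lower in CP (-0.81 ± 0.21, limma adjusted p = 0.00651), though the layers overlapped. Its call in OSVZ against VZ (-0.81 ± 0.25, limma adjusted p = 0.0348) was lost without any single library of OSVZ or without VZ library 2 or 3, at adjusted p of 0.0522 to 0.119, and without VZ libraries 1 and 2 together, at 0.207. KCNIP1 ran from 3.41 to 10.8 over the 12 libraries and did not pass (limma adjusted p = 0.154 in CP). KCNAB3, a beta subunit of KCNA channels, had 0.992, 0.911 and 0.823 scaled FPKM in CP and 1.67 to 2.95 in the other 9 libraries, without overlap (-0.78 ± 0.14, limma adjusted p = 7.02e-04).

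KCNQ3, a subunit of the M-type channels that limit repetitive firing, had its highest mean in OSVZ. KCNQ3 had 9.12, 11.2 and 13.5 scaled FPKM in CP, 18.4, 18.8 and 15.5 in OSVZ, 17.2, 8.85 and 8.06 in ISVZ and 8.35, 2.45 and 5.29 in VZ. Its 3 OSVZ libraries lay above all CP libraries and all VZ libraries. KCNQ3 was higher in OSVZ than in VZ by 1.65 ± 0.34 (limma adjusted p = 0.00424), and neither CP against the other layers (0.16 ± 0.28, limma adjusted p = 0.652) nor CP against OSVZ (-0.61 ± 0.34, limma adjusted p = 0.198) passed. KCNQ5, another neuronal member, averaged 3.42 ± 1.43 scaled FPKM in CP, 1.53 ± 0.247 in OSVZ, 0.864 ± 0.294 in ISVZ and 0.362 ± 0.0993 in VZ (1.21 ± 0.17 in CP, limma adjusted p = 1.26e-04), and KCNQ1, the cardiac and epithelial member, stayed below 1 throughout.

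Among KCNH genes, 3 of 7 tested were higher and 1 lower in CP, where 24.0% and 28.7% of all tested genes were. KCNH5 had 7.22, 6.38 and 4.11 scaled FPKM in CP, 1.31, 2.08 and 1.15 in OSVZ, 1.01, 0.928 and 0.689 in ISVZ and 0.404, 0.332 and 0.413 in VZ. No layers overlapped, and KCNH5 was higher in CP by 1.86 ± 0.16 (limma adjusted p = 3.02e-06). KCNH3 had 7.89, 4.12 and 3.96 in CP and 0.146 to 2.26 in the other 9 libraries (1.82 ± 0.21, limma adjusted p = 3.41e-05). In contrast KCNH8 had 1.18, 0.714 and 0.774 scaled FPKM in CP and 1.75 to 3.49 in the other 9, without overlap (-0.77 ± 0.12, limma adjusted p = 3.22e-04). KCNH1 had 1.39, 1.53 and 2.35 in CP, 0.716, 0.510 and 1.20 in OSVZ, 1.14, 0.746 and 1.03 in ISVZ and 1.85, 1.35 and 1.52 in VZ, with all CP and all VZ libraries above the OSVZ libraries. Its call in CP (0.39 ± 0.15, limma adjusted p = 0.0479) was lost in 13 of the 19 alternatives that could test it, among them without CP library 2 or 3, OSVZ library 1 or 2, ISVZ library 2 or 3, VZ library 2 or 3, or VZ libraries 1 and 2 together, at adjusted p of 0.0619 to 0.259. KCNH7 ran from 1.44 to 4.27 and did not pass in either comparison (limma adjusted p = 0.396 in CP and 0.0517 in OSVZ against VZ).

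KCNMA1, the pore of the large-conductance (BK) channel opened by voltage and calcium together, had 25.6, 21.4 and 19.1 scaled FPKM in CP, 8.53, 7.66 and 9.0 in OSVZ, 4.93, 1.94 and 2.13 in ISVZ and 1.56, 0.824 and 1.72 in VZ. Each layer lay apart from the next. KCNMA1 had the second largest difference in CP, at 2.39 ± 0.20 (limma adjusted p = 3.04e-06), and 2.01 ± 0.25 in OSVZ against VZ (limma adjusted p = 3.22e-04). Its beta subunits differed. KCNMB4, the neuronal one, averaged 7.0 ± 2.0 scaled FPKM in CP, 3.93 ± 0.346 in OSVZ, 2.61 ± 0.309 in ISVZ and 2.24 ± 0.412 in VZ (1.03 ± 0.14 in CP, limma adjusted p = 8.90e-05), while KCNMB2, which makes the channel inactivate, averaged 7.41 ± 1.27 in CP, 9.55 ± 1.53 in OSVZ, 9.9 ± 3.19 in ISVZ and 6.64 ± 0.899 in VZ and did not pass (limma adjusted p = 0.401). The sodium-activated KCNT1 averaged 1.03 ± 0.159 scaled FPKM in CP, 0.611 ± 0.557 in OSVZ, 0.186 ± 0.103 in ISVZ and 0.147 ± 0.0455 in VZ. It passed the filter only just, through 2 CP libraries and OSVZ library 3, so no test is given.

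**Figure D3:**
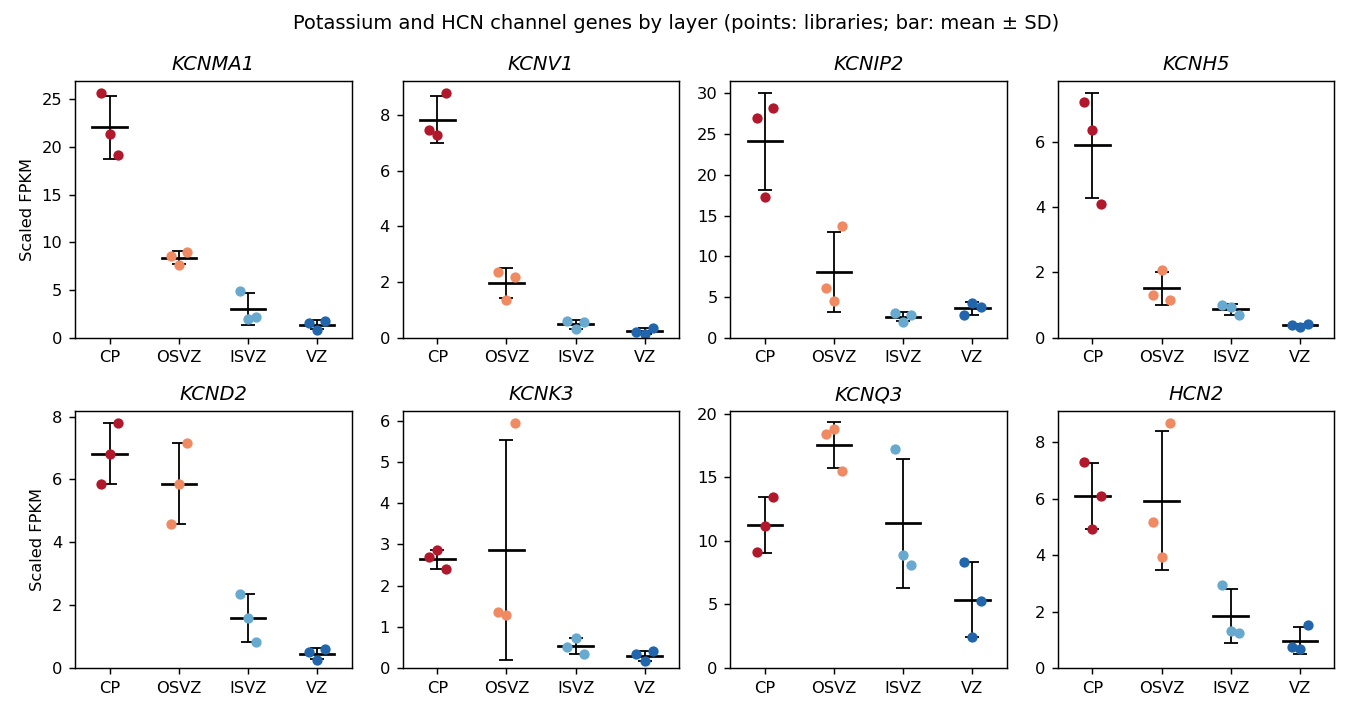
Scaled FPKM (vertical axes, each from 0) of 8 potassium and HCN channel genes in CP, OSVZ, ISVZ and VZ, with a point per library, a bar at the mean and whiskers of 1 SD (n = 3). The genes of the upper row peak in CP, with KCNMA1 at 19.1 to 25.6 there, whereas in the lower row KCND2, KCNK3 and HCN2 overlap between CP and OSVZ and the 3 OSVZ libraries of KCNQ3 lie above those of CP.

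HCN2, a main HCN gene of the brain, had 7.29, 4.94 and 6.09 scaled FPKM in CP, 5.17, 3.94 and 8.69 in OSVZ, 2.93, 1.31 and 1.24 in ISVZ and 0.734, 0.656 and 1.51 in VZ. CP and OSVZ overlapped and lay above ISVZ and VZ. HCN2 was higher in OSVZ than in VZ by 1.78 ± 0.29 (limma adjusted p = 0.00117) and in CP by 1.10 ± 0.23 (limma adjusted p = 0.00206). HCN4 averaged 4.27 ± 0.920 scaled FPKM in CP, 2.81 ± 0.898 in OSVZ, 1.32 ± 0.0373 in ISVZ and 0.957 ± 0.164 in VZ (1.02 ± 0.15 in CP, limma adjusted p = 1.55e-04) and was higher in OSVZ than in VZ by 0.94 (limma adjusted p = 0.00315). HCN3, a less studied member, had 2.35, 1.93 and 2.28 scaled FPKM in CP, 1.66, 1.27 and 2.61 in OSVZ, 0.978, 0.809 and 0.519 in ISVZ and 0.535, 0.533 and 0.383 in VZ, and was higher in OSVZ than in VZ by 0.91 ± 0.18 (limma adjusted p = 0.00338) and in CP by 0.72 ± 0.15 (limma adjusted p = 0.00167). CP and OSVZ overlapped for HCN3, and both lay above ISVZ and VZ. Without VZ libraries 1 and 2 together, the OSVZ against VZ calls of HCN2, HCN3 and HCN4 were lost, at limma adjusted p of 0.0515 to 0.0929.

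KCNJ10, the inward rectifier of glia that takes up extracellular potassium, had the steepest opposite gradient. It had 0.962, 0.495 and 0.248 scaled FPKM in CP, 2.63, 4.88 and 4.17 in OSVZ, 4.49, 3.94 and 5.20 in ISVZ and 14.9, 17.6 and 20.6 in VZ. CP lay below and VZ above all other libraries, while OSVZ and ISVZ overlapped. KCNJ10 was lower in CP (-2.36 ± 0.17, limma adjusted p = 1.01e-06), lower in OSVZ than in VZ (-1.95 ± 0.21, limma adjusted p = 2.02e-04) and lower in ISVZ than in VZ (-1.75 ± 0.21, limma adjusted p = 0.00158). Astrocyte markers moved with it, with all 5 lower in CP and in OSVZ against VZ and a summed level of 3.61 to 7.28 scaled FPKM in CP, 13.8 to 45.6 in OSVZ, 33.5 to 81.4 in ISVZ and 195 to 282 in VZ. All 6 radial glia markers were also lower in both comparisons, and the part of either cell type in the result was not tested. Summed choroid plexus markers stood at 560, 2699 and 44.0 scaled FPKM in VZ libraries 1 to 3, and at most at 6.51 in OSVZ. The part of choroid plexus in the KCNJ10 values was not tested.

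Of the 7 tested inward rectifiers, 4 were higher in CP, KCNJ10 was lower and 2 were not called. Of all tested genes, 24.0% were higher and 28.7% lower. KCNJ4 is counted among the 4 although only its CP libraries carried it past the filter. KCNJ4 had 2.87, 2.53 and 3.36 scaled FPKM in CP, 0.574, 0.331 and 0.608 in OSVZ, 0.193, 0.101 and 0.0855 in ISVZ and 0.0626, 0.171 and 0.268 in VZ. It reached 1 scaled FPKM in the CP libraries alone and passed the filter only through them, so its log2 difference of 1.64 in CP is given with no test. KCNJ3, a subunit of the G-protein-gated channel, averaged 9.44 ± 0.784 scaled FPKM in CP, 7.31 ± 2.48 in OSVZ, 3.7 ± 1.87 in ISVZ and 2.64 ± 1.26 in VZ (1.06 ± 0.27 in CP, limma adjusted p = 0.00640). KCNJ11, the pore of the ATP-sensitive channel, averaged 5.1 ± 1.16 in CP, 3.9 ± 0.155 in OSVZ, 2.92 ± 0.797 in ISVZ and 2.14 ± 0.294 in VZ (0.63 ± 0.14 in CP, limma adjusted p = 0.00334). KCNJ2 averaged 2.81 ± 1.48 in CP, 0.904 ± 0.150 in OSVZ, 1.03 ± 0.171 in ISVZ and 1.42 ± 0.254 in VZ (0.79 ± 0.18 in CP, limma adjusted p = 0.00343). KCNJ8, known from pericytes, stayed between 0.0623 and 0.730 and was not tested, and KCNJ13 was not analysed here.

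The tandem-pore leak channels split between layered and even genes. KCNK9 had 7.25, 4.57 and 3.45 scaled FPKM in CP, 1.54, 0.776 and 1.65 in OSVZ, 0.755, 0.295 and 0.312 in ISVZ and 0.329, 0.255 and 0.697 in VZ, with CP above all other libraries (1.82 ± 0.20, limma adjusted p = 2.23e-05). KCNK3, its close relative in the acid-sensitive group, had 2.68, 2.85 and 2.40 in CP, 1.37, 1.29 and 5.94 in OSVZ, 0.515, 0.722 and 0.344 in ISVZ and 0.326, 0.167 and 0.402 in VZ. OSVZ library 3 was the highest of all 12. KCNK3 was higher in OSVZ than in VZ by 1.37 ± 0.34 (limma adjusted p = 0.0119, and 0.169 without VZ libraries 1 and 2 together). Its call in CP (0.96 ± 0.28, limma adjusted p = 0.0135) was lost without CP library 2, at 0.0525. The stretch- and lipid-sensitive KCNK2 and KCNK10 were among the more abundant channel genes in every layer. KCNK2 averaged 12.1 ± 3.25 scaled FPKM in CP, 13.0 ± 2.11 in OSVZ, 11.4 ± 0.858 in ISVZ and 17.0 ± 2.91 in VZ, and KCNK10 averaged 7.7 ± 0.956 in CP, 5.63 ± 0.565 in OSVZ, 6.5 ± 1.55 in ISVZ and 7.62 ± 0.972 in VZ, and neither passed in CP (limma adjusted p = 0.343 for KCNK2 and 0.188 for KCNK10).

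Neither of the 2 tested small-conductance calcium-activated channel genes was higher in CP, where 24.0% of all tested genes were. KCNN1 had 4.19, 3.52 and 2.90 scaled FPKM in CP, 6.68, 4.91 and 7.01 in OSVZ, 6.96, 8.71 and 7.07 in ISVZ and 5.43, 7.33 and 5.02 in VZ. CP lay below all other libraries (-0.73 ± 0.14, limma adjusted p = 9.90e-04). KCNN2 ran from 1.33 to 5.46, with the lowest and the highest value both in CP, and did not pass (limma adjusted p = 0.314).

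SCN7A, a sodium-sensing relative of the SCN channels that is known from glia and does not open as a classic voltage-gated channel, was the one SCN alpha gene highest in the VZ. It had 0.254, 0.241 and 0.337 scaled FPKM in CP, 0.0973, 0.510 and 0.730 in OSVZ, 0.537, 0.700 and 0.671 in ISVZ and 2.68, 3.92 and 2.28 in VZ. SCN7A passed the filter through its VZ libraries alone, so its log2 differences, -1.46 in OSVZ against VZ, -1.25 in ISVZ against VZ and -0.71 in CP, are given with no test. KCNA5 had 0.262, 0.494 and 0.405 scaled FPKM in CP, 0.367, 0.312 and 0.670 in OSVZ, 0.432, 2.09 and 2.14 in ISVZ and 1.21, 2.69 and 2.21 in VZ. Its ISVZ library 1 was at the CP and OSVZ level. KCNA5 was lower in OSVZ than in VZ (-1.04 ± 0.29, limma adjusted p = 0.0211) and in CP (-0.65 ± 0.24, limma adjusted p = 0.0383). Both calls were fragile: the first was lost without OSVZ library 1 or 2 or VZ library 2 or 3 (adjusted p of 0.0591 to 0.0873) or VZ libraries 1 and 2 together (0.114), and the second without any single CP library, OSVZ library 3, ISVZ library 2 or 3, or VZ library 2 or 3 (0.0565 to 0.126).

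KCNE2, an accessory subunit known from the choroid plexus, was not tested, with 0.00831, 0.136 and 0.0257 scaled FPKM in CP, at most 0.0501 in OSVZ and at most 0.145 in ISVZ. In VZ it had 1.31, 6.89 and 0.183, in the same order of libraries as TTR (529, 2514 and 33.8). Summed choroid plexus markers ran from 0.599 to 4.31 scaled FPKM in CP, 2.83 to 6.51 in OSVZ, 3.17 to 53.0 in ISVZ and 44.0 to 2699 in VZ, with all 4 tested markers lower in OSVZ than in VZ. Summed motile cilia markers ran from 0.244 to 0.404 in CP, 0.612 to 1.61 in OSVZ, 1.33 to 2.28 in ISVZ and 16.2 to 70.2 in VZ. The part of these cells in the VZ values was not tested.

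**Figure D4:**
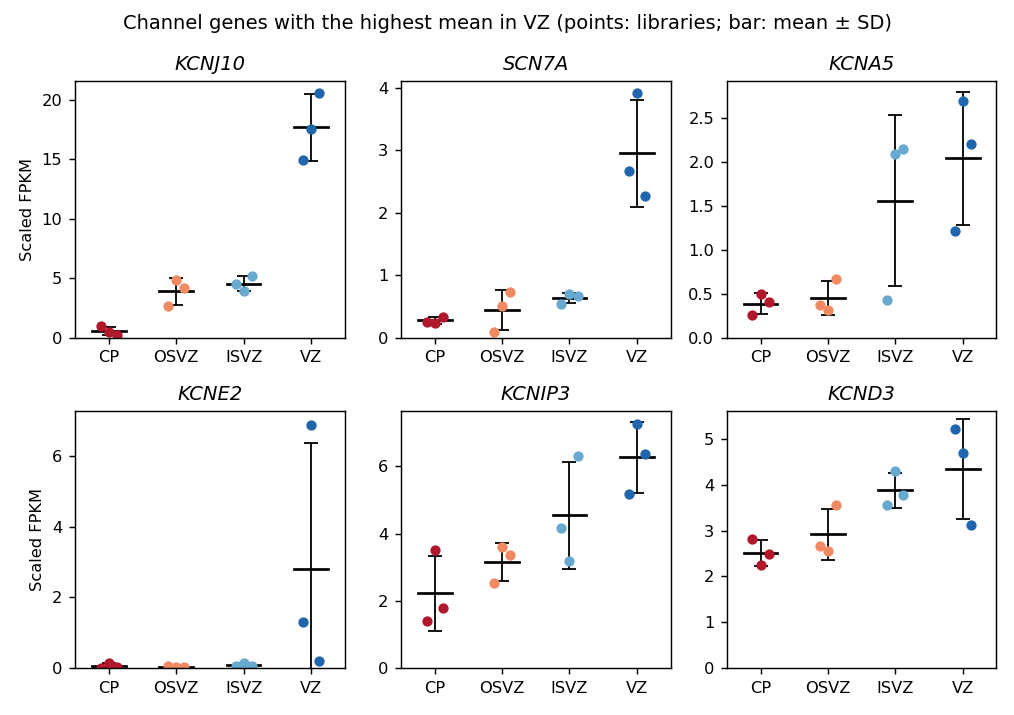
Scaled FPKM (vertical axes, each from 0) of 6 channel genes whose mean was highest in VZ, in CP, OSVZ, ISVZ and VZ, with a point per library, a bar at the mean and whiskers of 1 SD (n = 3, cut at 0). KCNJ10 reaches 14.9 to 20.6 in VZ and at most 0.962 in CP, and KCNE2 is highest in VZ library 2.

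Between neighbouring layers the differences were fewer. In CP against OSVZ, 25 channel genes were higher and 4 lower, where 13.7% and 17.3% of all tested genes were. The 5 largest were SCN2A (1.95 ± 0.26, limma adjusted p = 2.86e-04), KCNV1 (1.59 ± 0.16, 4.66e-05), KCNIP2 (1.57 ± 0.32, 0.00389), CACNA1E (1.53 ± 0.36, 0.00870) and KCNH5 (1.45 ± 0.19, 2.86e-04), and the 4 lower were KCNJ10 (-1.64 ± 0.21, 2.21e-04), KCNAB3 (-0.71 ± 0.17, 0.00954), KCNN1 (-0.66 ± 0.17, 0.0122) and KCNH8 (-0.62 ± 0.15, 0.0101). In OSVZ against ISVZ, 4 channel genes were higher, where 0.482% of all tested genes were: SCN2A (1.63 ± 0.26, limma adjusted p = 0.0333), KCND2 (1.43 ± 0.22, 0.0302), KCNMA1 (1.31 ± 0.25, 0.0496) and KCNV1 (0.99 ± 0.16, 0.0354). By limma 0 were lower, where 0.121% of all tested genes were. At an unadjusted p under 0.05 in limma, 3 channel genes were lower and 38 higher. Counts at an unadjusted p, here and below, are given without the share of all tested genes, so they cannot be set against a background. All 4 calls were lost, leaving 0, without OSVZ library 1 or 3 or without ISVZ library 2 or 3 (20 to 24 higher at an unadjusted p under 0.05), whereas 9 and 11 genes were called without OSVZ library 2 and ISVZ library 1; without CP library 1 or VZ library 1 the count was 2, and without CP library 2 or VZ library 2 it was 1. In ISVZ against VZ, SCN3A (0.90 ± 0.18, limma adjusted p = 0.0127), KCND2 (0.80 ± 0.22, 0.0438) and CACNA1B (0.62 ± 0.16, 0.0363) were higher, where 1.54% of all tested genes were. KCNJ10 and SCN7A were lower, where 7.18% of all tested genes were, and SCN7A passed the filter through VZ alone. The 3 higher calls were lost, leaving 0, without ISVZ library 2 or VZ library 2 or 3 (limma adjusted p of 0.0570 to 0.180, with 10 to 16 genes higher at an unadjusted p under 0.05), and 6 genes were called higher without OSVZ library 3 or ISVZ library 3, against 1 without ISVZ library 1. Without VZ libraries 1 and 2 together, the 3 genes had limma adjusted p of 0.0861 to 0.419, and the 4 genes of OSVZ against ISVZ had 0.0613 to 0.0832. The comparisons share layers, so they are not independent of each other.

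Of the 52 channel genes that were not tested, 2 (CACNA1F and KCNAB1) were at 0 in all libraries and 42, these included, stayed below 1 scaled FPKM in all 12. For a few of them an entry with an "li" name carried the expression. SCN1A, the gene of Dravet syndrome, did not exceed 0.213 scaled FPKM, while SCN1Ali2, which lies between SCN2A and SCN9A at 147485576 to 147665488 on chromosome 1, averaged 8.66 ± 1.46 in CP, 7.49 ± 1.44 in OSVZ, 5.76 ± 0.323 in ISVZ and 2.93 ± 0.933 in VZ. The entry named SCN1A (146536622 to 146591357) overlaps the SCN3A locus. KCNAB1 was at 0 while KCNAB1li1 averaged 17.1 ± 7.19 scaled FPKM in CP, 4.35 ± 0.989 in OSVZ, 2.31 ± 0.310 in ISVZ and 1.52 ± 0.171 in VZ, and CACNB2 did not exceed 0.00729 while CACNB2li1 averaged 4.74 ± 0.445 in CP, 2.34 ± 0.957 in OSVZ, 0.796 ± 0.186 in ISVZ and 1.0 ± 0.151 in VZ. KCNN3li1 averaged 0.700 ± 0.296 in CP, 2.56 ± 0.781 in OSVZ, 1.94 ± 0.993 in ISVZ and 1.74 ± 0.727 in VZ. The rule left out 19 such entries, of which these 4 were tested. Whether they are further copies or the main loci of these genes was not tested. No source used here tells how reads were divided between similar entries. The levels of SCN1A, KCNAB1, CACNB2 and KCNN3 are therefore uncertain. Of the 83 tested channel genes, 43 overlap another gene with a symbol, and since no strand setting is given, reads of overlapping genes cannot be told apart. Tested channel genes were long, with a median locus of 101 kb against 37.2 kb for all tested genes, with 94.7 kb for those higher in CP and 110 kb for those not called there. Among all tested genes, those higher in CP had a median locus of 51.1 kb, so length moved with this comparison, and its part in the result was not tested.

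Channel partners and channels of other families, all outside the set, were counted in the same fit. The list holds genes that anchor, traffic or modulate channels, and also CLCN, NALCN, TPCN, HVCN1 and ANO genes. Of the 48 listed genes, 40 were tested, with 20 higher and 1 lower in CP. SPTBN4 is counted among the 20 although only its CP libraries carried it past the filter. In OSVZ against VZ, 12 were higher and 2 lower. CLCN2, CLCN4 and NALCN are among the 20. Of all tested genes, 24.0% were higher and 28.7% lower in CP, and 11.7% higher and 16.2% lower in OSVZ against VZ. FGF12, which binds sodium channel tails, averaged 24.3 ± 8.24 scaled FPKM in CP, 6.79 ± 3.28 in OSVZ, 3.64 ± 1.49 in ISVZ and 2.88 ± 0.0882 in VZ (2.28 ± 0.25 in CP, limma adjusted p = 1.92e-05). ANK3, the ankyrin that gathers sodium and KCNQ channels at the axon initial segment, averaged 36.7 ± 4.66 in CP, 30.6 ± 2.24 in OSVZ, 21.1 ± 7.49 in ISVZ and 10.8 ± 4.02 in VZ (1.47 ± 0.26 in OSVZ against VZ, limma adjusted p = 0.00200). PEX5L, the TRIP8b partner of HCN channels, averaged 6.4 ± 0.950 in CP, 5.29 ± 0.849 in OSVZ, 2.89 ± 0.737 in ISVZ and 0.862 ± 0.584 in VZ, higher in OSVZ than in VZ by 1.80 ± 0.22 (limma adjusted p = 3.43e-04). The 1 listed gene lower in CP was the proton channel HVCN1, known from microglia, at 0.423 ± 0.215 in CP, 0.648 ± 0.162 in OSVZ, 0.941 ± 0.190 in ISVZ and 2.15 ± 0.808 in VZ (-0.60 ± 0.17, limma adjusted p = 0.0108), beside microglial markers of which 7 of 7 were lower in CP. HVCN1 was also lower in OSVZ than in VZ (-0.90 ± 0.20, limma adjusted p = 0.00734), where the 7 microglial markers had a median log2 difference of 0.17.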

How the data were processed

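Poly(A) RNA of laser-captured cortical layers was sequenced, with 3 libraries per layer. The authors deposited a gene table per library with FPKM and its lower and upper bound; per the submitters' processing notes the tools were HISAT2 and Cufflinks, without versions, and the genome build is not given in the sources used here. The labels give embryonic day 37 and were followed, while the names of the deposited files carry day 35. Entries sharing an identifier (360 identifiers, none of them a channel gene) were summed, and 4 identifiers with a failed entry were left out. Each library was scaled by the median ratio to the geometric mean over 10200 genes (factors 0.947 to 1.06), and log2(scaled FPKM + 1) was fitted with limma 3.58.1 in R 4.3.3 (layer means, trend, 8 residual degrees of freedom) for genes with at least 1 scaled FPKM in 3 libraries, with Benjamini-Hochberg adjustment over 14101 genes. The fit was tested on simulated data. FPKM hold no read counts, so depth is unknown; the bounds lay a median of 7.80% to 12.9% from the value. No 2 libraries held identical values (highest r 0.974).

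Members, gene lists and tests were chosen with earlier results of these data known. Genes named with a test are the largest changes in each comparison, the 2 highest genes of each family and a fixed list of channel genes of fetal cortex and brain disease; other members named with a test were chosen after their values were seen. SDs are over the 3 libraries of a layer. SEs are those of the limma fit, which pools the spread of a gene over all 12 libraries and draws it towards that of genes of similar level. Alternatives were other scalings, filters and pseudocounts, leaving out libraries, a replicate block, and leaving out genes that overlap others. Some channel genes that enter the counts are not reported here by name.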

Additional observations from a re-analysis of the deposited data

How the results depend on the processing

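Over 20 alternatives, 129 called differences of channel genes reported by name kept their direction in each, 83 of them stayed called in every alternative that could test them and 46 lost the call in at least 1. Leaving out 1 library at a time gave 53 to 59 genes differing over the layers (59 with all libraries), 43 to 48 higher and 6 to 8 lower in CP, 28 to 41 higher and 1 to 6 lower in OSVZ against VZ, 0 to 6 higher and 1 to 2 lower in ISVZ against VZ, 0 to 11 higher and 0 to 1 lower in OSVZ against ISVZ, and 19 to 29 higher and 4 to 5 lower in CP against OSVZ. Without VZ libraries 1 and 2 together, 14 were higher and 1 lower in OSVZ against VZ, 0 higher and 1 lower in ISVZ against VZ, and 0 higher in OSVZ against ISVZ (3 and 33 higher at an unadjusted p under 0.05 in limma). A filter of 5 FPKM, which tests fewer genes, left 29 over the layers, 23 higher and 3 lower in CP, 24 and 2 in OSVZ against VZ, 1 and 1 in ISVZ against VZ, and 11 and 2 in CP against OSVZ; it gave 6 higher in OSVZ against ISVZ. No filter gave 13 lower in CP, 26 higher in OSVZ against VZ, 0 higher and 3 lower in ISVZ against VZ, and 0 higher in OSVZ against ISVZ (19 and 41 at an unadjusted p under 0.05), and the cause was not tested. Leaving out members that overlap another gene left 25 over the layers, 20 and 4 in CP, 19 and 2 in OSVZ against VZ, 1 and 1 in ISVZ against VZ, 2 in OSVZ against ISVZ and 8 higher in CP against OSVZ. Quantile normalisation gave 6 higher in ISVZ against VZ and equal totals gave 1. A pseudocount of 0.1 gave 6 lower in OSVZ against VZ and 0 higher in OSVZ against ISVZ (40 at an unadjusted p under 0.05). Uncalled differences that changed sign were KCNN1 in OSVZ against VZ (-0.036 to 0.20 when leaving out 1 library, negative without OSVZ library 3 at -0.025 or VZ library 3) and CACNA1G in OSVZ against VZ (-0.34 to 0.19 when leaving out 1 library, positive without OSVZ library 1 at 0.084, OSVZ library 2 or VZ library 1 at 0.071; 0.036 under quantile normalisation and 0.035 without VZ libraries 1 and 2).

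Library numbers are shared across layers. Deviations from the layer means correlated at 0.0629 to 0.425 between same-numbered libraries (16 of 18 over 0.1) and at -0.363 to 0.175 between others, and each of the 12 libraries correlated best with its own number, a hint from the data and not from the design. With the number as a replicate block, 65 genes differed over the layers, 46 were higher and 8 lower in CP, 43 higher and 8 lower in OSVZ against VZ, 4 and 3 in ISVZ against VZ, 5 higher in OSVZ against ISVZ, and 28 and 4 in CP against OSVZ; KCND2 in ISVZ against VZ was not called under the block (limma adjusted p = 0.0584).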

Other observations

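OSVZ library 3 had the highest value of the 3 OSVZ libraries in 59 of the 83 tested channel genes (71.1%), against 40.8% of all tested genes. In 13 of the 83 (15.7%) it was at least 2-fold above both others, against 4.79% of all tested genes. The 13 were CACNA1G, CACNA2D2, CACNA2D3, KCNA2, KCNC4, KCNH2, KCNIP1, KCNIP2, KCNIP4, KCNK3, KCNT1, SCN2A and SCN9A. KCNC4, a fast A-type channel, had 1.76, 1.51 and 5.5 scaled FPKM in OSVZ libraries 1 to 3, and KCNH2, the HERG channel, had 1.99, 1.79 and 4.86. ISVZ library 1 was at least 2-fold above the other ISVZ libraries for 7.23% of the tested channel genes against 1.74% of all tested genes, with KCNMA1 and HCN2 among them. Summed neuronal markers ran over a narrow range in OSVZ, from 798 to 894 scaled FPKM, and over a wider one in ISVZ, from 358 to 555.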
